A study of Homo with 4 samples.

Results

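The genes described here encode integrins, laminins, collagens, matrix metalloproteinases and their inhibitors, with the adhesive glycoproteins fibronectin (FN1), thrombospondin 1 (THBS1) and SPARC. Members were chosen by symbol alone: any gene whose symbol begins with ITGA, ITGB, LAMA, LAMB, LAMC, COL, MMP or TIMP followed by a digit, together with ITGAV, ITGAE, ITGAL, ITGAM, ITGAX, FN1, THBS1 and SPARC. This gave 113 of the 20263 genes in the deposited table, of which 67 had a count of 10 or more in at least 2 libraries and were tested. The members were 42 collagen chains, 23 matrix metalloproteinases (MMPs), 17 integrin alpha chains, 12 laminin chains, 8 integrin beta chains, 4 tissue inhibitors of metalloproteinases (TIMPs) and the 3 glycoproteins. Another 4 genes, ITGB1BP1, ITGB1BP2, ITGB3BP and MMP24OS, matched the prefixes but belong to none of these families, and they are given apart.

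RNA was sequenced from H1299, a long-established line of human non-small cell lung carcinoma, after lentiviral delivery of a control hairpin (shCtrl, n = 2, genotype labelled WT) or a hairpin against IGF2BP3 (shIGF2BP3, n = 2, labelled IGF2BP3 knockdown). All 4 cultures carried a lentiviral hairpin and were grown in the same serum-containing medium. The study used more than 1 hairpin against IGF2BP3, and which of them each shIGF2BP3 library carried is not stated, so the spread in that group may hold a difference between hairpins. IGF2BP3, an RNA-binding protein that attaches to mRNAs and affects their stability and translation, was the target, and the comparison asks which adhesion and matrix genes differ when it is reduced.

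Integrins are cell surface receptors made of an alpha and a beta chain, and they tie the cytoskeleton to the matrix outside the cell. Laminins, each a trimer of alpha, beta and gamma chains, form the basement membrane together with network-forming collagens, while fibril-forming collagens and fibronectin build the matrix of connective tissue. MMPs cleave these proteins and TIMPs block MMPs, and the balance among the families is known for its part in how carcinoma cells attach, migrate and invade.

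The libraries held between 29709686 and 34817513 estimated counts, and mitochondrially encoded genes took 9.11% and 13.43% of them in shCtrl and 11.42% and 17.02% in shIGF2BP3, the highest share being in shIGF2BP3 replicate 2. IGF2BP3 (chr7:23310209-23470467, GRCh38) was at 41.1 and 32.9 CPM (counts scaled to library size with TMM factors) in shCtrl and at 26.4 and 24.8 CPM in shIGF2BP3. Both knockdown libraries were below both controls, with a log2 fold change of -0.53 (SE 0.17, edgeR quasi-likelihood adjusted p = 0.471), and without 1 library it lay between -0.69 and -0.36. The fold change of 1.45 fell short of the 1.5-fold limit that the study applied to genes. The cells are labelled epithelial, and the keratins KRT8 and KRT18 were abundant, whereas the epithelial markers EPCAM and CDH1 averaged 0.109 and 0.00257 FPKM (counts scaled by transcript length and library size) and the mesenchymal-type marker VIM ran from 1828 to 2612 FPKM. Of the markers of other cell types, 6 of 7 for fibroblasts (ACTA2 apart), all 4 for endothelium and 4 of 6 for leukocytes averaged under 0.1 FPKM, with PTPRC and CD3E at a count of 0 in every library. The leukocyte markers CD68 and CD14 averaged 22.05 and 0.1085 FPKM.

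Expression of the families was concentrated in a few genes. Per unit length, TIMP1 was the most abundant tested member at a mean of 271.3 FPKM over the 4 libraries, followed by ITGB1 at 158.5 FPKM and ITGA3 at 135.6 FPKM. Among the tested members, 20 averaged at least 10 FPKM, 15 lay between 1 and 10 FPKM and 32 lay below 1 FPKM. The most abundant laminin was LAMB3 at 33.8 FPKM, the most abundant collagen was COL18A1 at 14.8 FPKM, and the most abundant MMP was MMP14 at 12.7 FPKM. The plot of levels by library has 1 point per library for each member drawn, and ITGA6, TIMP2 and FN1 are among those spread widely within a group.

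**Figure D1:**
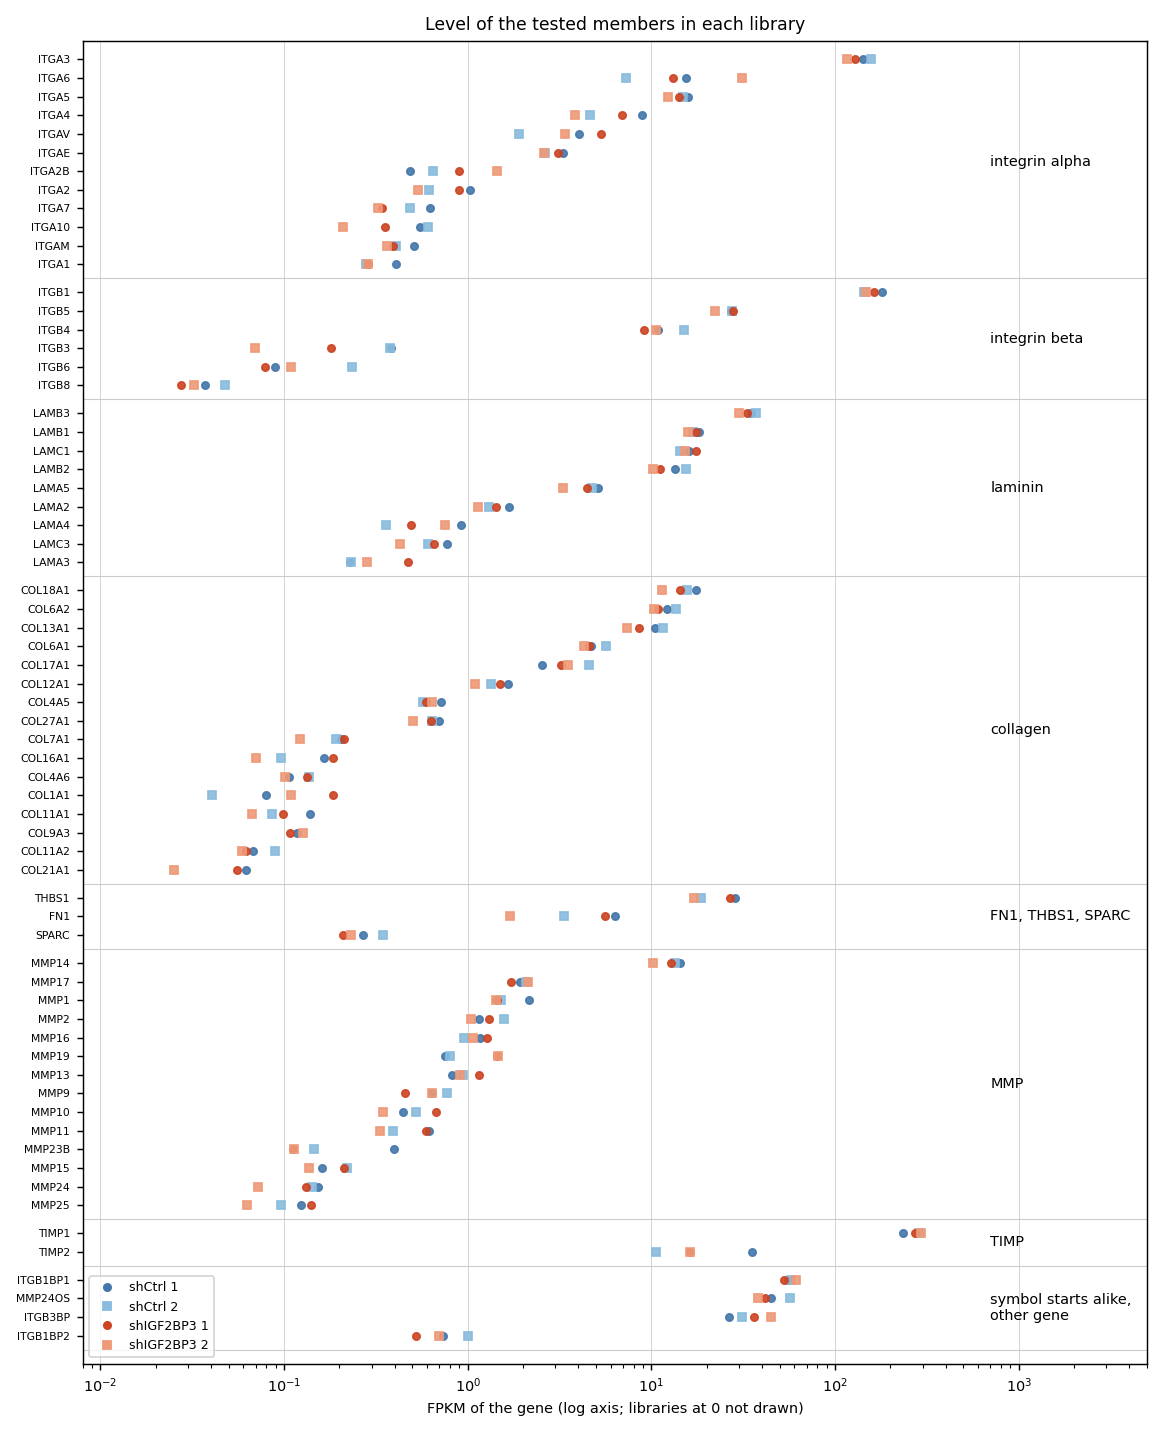
FPKM of the tested members (1 is not shown) on a log axis, by family, with 1 point for each library (blue, shCtrl; red, shIGF2BP3; circle, replicate 1; square, replicate 2). TIMP1, ITGB1 and ITGA3 stood at the upper end, and 32 members averaged below 1 FPKM.

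Of the 46 members that were not tested, 15 had a count of 0 in all 4 libraries, 27 reached at most 9 counts and 4 reached 10 or more in a single library. Several chains typical of connective tissue or of basement membrane fell here: COL1A2, COL3A1, COL5A1 and COL4A2, with COL4A1 at counts of 0 and 0 in shCtrl and 10 and 6 in shIGF2BP3. The leukocyte integrin chains ITGB2, ITGAL and ITGAX, the laminin chain LAMA1, the proteases MMP3, MMP7 and MMP8 and the inhibitors TIMP3 and TIMP4 were likewise too low to test. ITGAM and ITGAE, also chains of leukocyte integrins, were tested, at means of 0.418 and 2.9 FPKM. The share of members tested was 59.3%, against 66.3% of all genes. Of the tested members, 63 reached a count of 10 in all 4 libraries, and MMP23B alone passed through shCtrl only, with counts of 12 and 10 in shCtrl and 7 and 7 in shIGF2BP3.

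Between the groups, 2 members were higher (2.99% of those tested, against 2.54% of all 13430 genes) and 2 were lower (2.99%, against 2.81%) in shIGF2BP3 by the limits the study applied, 1.5-fold or more and p not above 0.05 before adjustment (these are the thresholds meant hereafter). In either direction this made 4 members (5.97%), against 5.35% of all genes. The higher members were MMP19 and ITGB3BP, and the lower members were ITGB3 and ITGA10. These shares lie near those of all genes. After Benjamini-Hochberg adjustment over all genes tested, edgeR called 0 members and 0.0% of all genes, the smallest adjusted p of a member being 0.431. At an unadjusted p of at most 0.05, 5 members (7.46%, these 4 and COL13A1) passed, against 10.6% of all genes. At an adjusted p under 0.05, DESeq2 called 1 member, MMP19, among 159 of all 13430 genes, and limma on FPKM called 0 members. With counts scaled to library totals in place of TMM, 1 member was higher and 3 were lower, ITGB3BP dropping out and COL13A1 passing. Which members passed changed with the library left out. In these fits the log2 fold change ran from 1.08 to 1.51 for MMP19 and from 0.38 to 0.80 for ITGB3BP. It ran from -2.25 to -1.06 for ITGB3 and from -1.31 to -0.70 for ITGA10. The cultures are labelled biological replicates without further detail, so p-values measure only the spread between these libraries, and in bulk RNA fewer cells of a kind and less RNA per cell cannot be told apart.

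The members lay below 0 more often than above it. The log2 fold change was below 0 for 42 of 67 members (62.7%), against 50.2% of all genes, with a median of -0.15 against -0.002. In CPM, the knockdown values all lay under the control values for 24 members (35.8%, against 23.6% of all genes) and all above them for 9 members (13.4%, against 23.2%). This split rested on shIGF2BP3 replicate 2: without it, 34 of 67 members (50.7%) lay below 0 and the median was -0.03, and without shIGF2BP3 replicate 1, 48 members (71.6%) did, with a median of -0.21. Replicate 2 of shIGF2BP3 also had the highest mitochondrial share, whose part in the result was not tested. With library totals in place of TMM, 74.6% of members and 60.1% of all genes lay below 0.

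**Figure D2:**
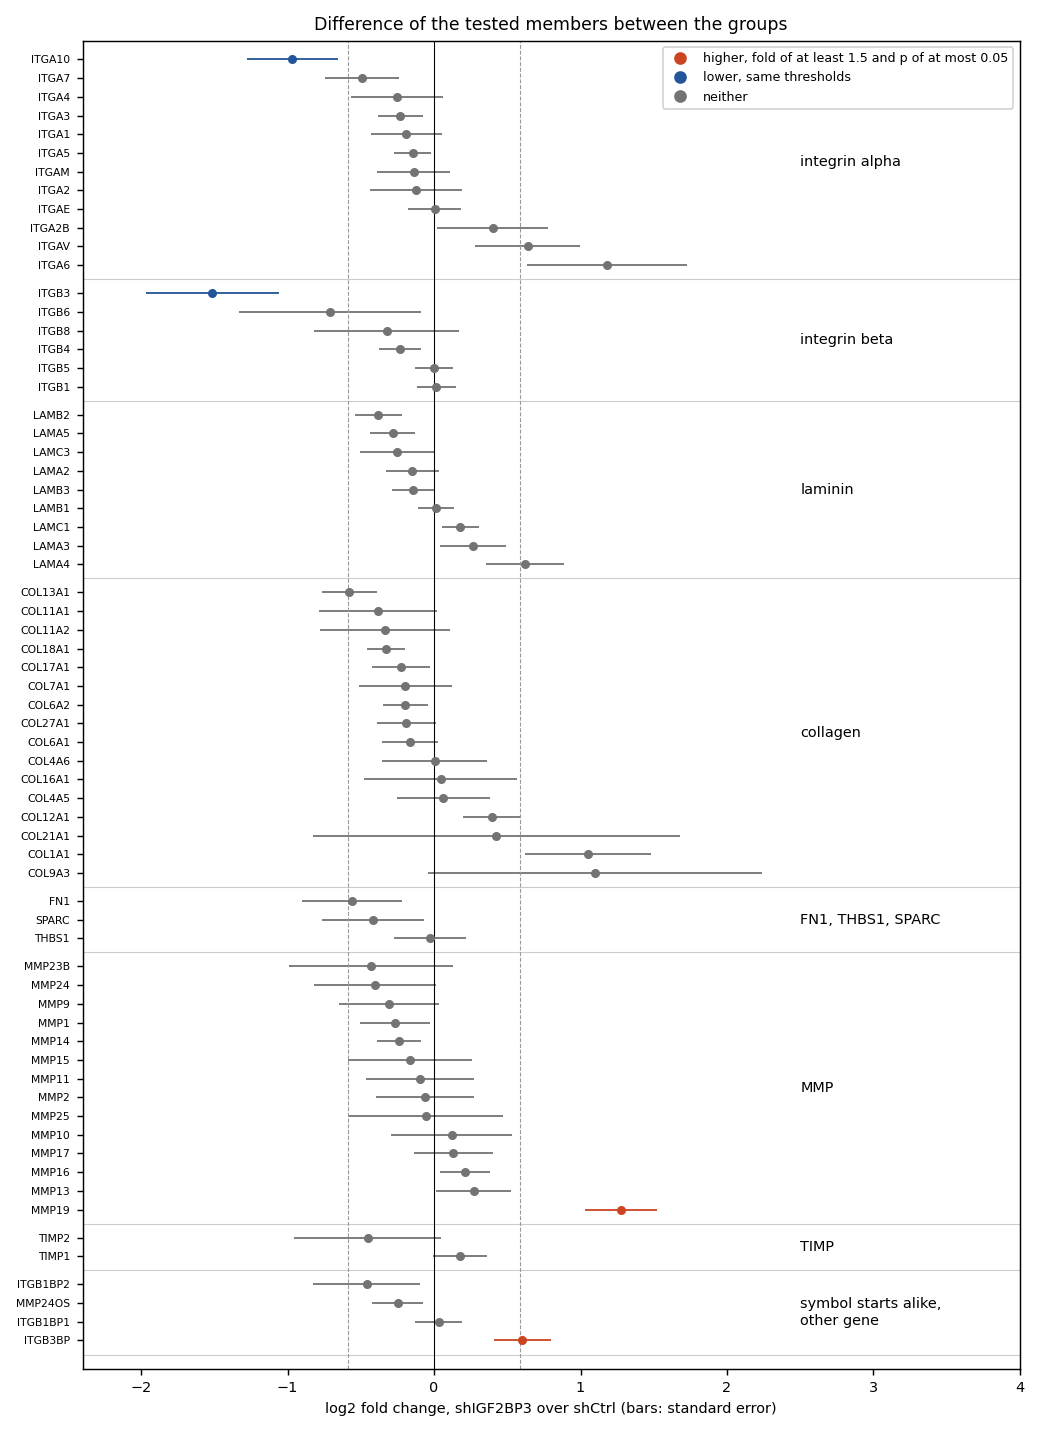
Log2 fold change of the tested members (1 is not shown), shIGF2BP3 over shCtrl, from the edgeR fit, with the standard error as bars and dashed lines at a fold change of 1.5. MMP19 and ITGB3BP (red) passed the thresholds as higher, ITGB3 and ITGA10 (blue) as lower, and the other members drawn (grey) did not.

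Of the receptors, 12 alpha chains and 6 beta chains were tested, and 1 of each passed the thresholds, both lower. ITGB3 (ENSG00000259207, chr17:47253846-47311816, plus strand) encodes the beta chain that pairs with ITGAV in vitronectin receptors and with ITGA2B on platelets. It was at 1.68 and 1.83 CPM in shCtrl and at 0.840 and 0.363 CPM in shIGF2BP3, from counts of 63 and 62 against 29 and 10. The groups did not overlap, and shIGF2BP3 replicate 2 was the lowest. Its log2 fold change was -1.51 (SE 0.45, edgeR adjusted p = 0.471). The gene was rare, at a mean of 0.252 FPKM. Without shCtrl replicate 1 or 2 it no longer passed, at -1.57 and -1.45.

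ITGA10 (ENSG00000143127, chr1:145891208-145910189, minus strand), the alpha chain of a collagen receptor known from cartilage, was at 3.17 and 3.90 CPM in shCtrl and at 2.17 and 1.42 CPM in shIGF2BP3. Neither knockdown library reached the lower control. The log2 fold change was -0.97 (SE 0.31, edgeR adjusted p = 0.471), and the mean level was 0.431 FPKM. It did not pass without shCtrl replicate 2, at -0.81, or without shIGF2BP3 replicate 2, at -0.70. ITGB3 and ITGA10 were thus both among the members below 1 FPKM, and of the members averaging at least 1 FPKM, 0 passed as lower.

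The abundant integrin chains did not pass. ITGB1, the shared partner of most matrix-binding alpha chains, was at 702.5 and 621.5 CPM in shCtrl and at 669.8 and 669.0 CPM in shIGF2BP3, with both knockdown libraries inside the range of the controls. Its log2 fold change was 0.02 (SE 0.14, edgeR adjusted p = 0.973), and its sign turned with library totals (-0.07). ITGB5, a vitronectin receptor chain that pairs with ITGAV, was at 114.3 and 120.9 CPM in shCtrl and at 121.3 and 113.4 CPM in shIGF2BP3, which overlap, with a log2 fold change of -0.003 (SE 0.13). ITGB4, which pairs with ITGA6 in the hemidesmosomes of epithelia, was at 56.4 and 66.1 CPM in shCtrl and at 53.2 and 50.9 CPM in shIGF2BP3. Its groups did not overlap, but the log2 fold change of -0.235 had an SE of 0.143 (edgeR adjusted p = 0.558). Of the 6 beta chains, 5 had a log2 fold change below 0, and the median was -0.28. It was -0.003 among the chains of at least 1 FPKM, -0.39 without shCtrl replicate 1 and -0.093 without shCtrl replicate 2.

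Among the alpha chains, ITGA3, a laminin receptor chain, was at 733.2 and 900.3 CPM in shCtrl and at 699.7 and 691.8 CPM in shIGF2BP3. The knockdown libraries lay just below the lower control, with a log2 fold change of -0.23 (SE 0.15, edgeR adjusted p = 0.586). ITGA5, the fibronectin receptor chain, was at 74.3 and 77.9 CPM in shCtrl and at 70.5 and 67.0 CPM in shIGF2BP3. It too was below the controls in both knockdown libraries, by a log2 fold change of -0.15 (SE 0.13, edgeR adjusted p = 0.668).

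ITGA6, which forms laminin receptors with ITGB1 or ITGB4, was at 86.1 and 43.7 CPM in shCtrl and at 78.0 and 216.3 CPM in shIGF2BP3. One knockdown library stood far above the other 3, and the groups overlapped. Its log2 fold change was 1.18 (SE 0.55, edgeR adjusted p = 0.496) and went down to 0.27 without shIGF2BP3 replicate 2, while without shIGF2BP3 replicate 1 it was 1.74 and passed. ITGAV, the alpha chain of several fibronectin and vitronectin receptors, was at 30.3 and 15.5 CPM in shCtrl and at 42.0 and 29.4 CPM in shIGF2BP3, again overlapping, at a log2 fold change of 0.64 (SE 0.36, edgeR adjusted p = 0.534). It passed without shCtrl replicate 1 and with the replicate number as a block. Of the 12 alpha chains, 8 lay below 0, and the median was -0.14, turning to 0.065 without shCtrl replicate 1. The FPKM of all 17 alpha chains, the untested ones included, summed to 192.2 and 191.8 in shCtrl and to 173.8 and 172.7 in shIGF2BP3, a sum made up mostly of ITGA3. That of the beta chains was 219.1 and 187.0 in shCtrl and 199.4 and 180.7 in shIGF2BP3, and these overlapped. FPKM were not scaled with TMM factors, and all genes leaned lower on that scale. In limma on log2(FPKM + 1), 60.5% of all genes fitted lay below 0, with a median of -0.07.

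**Figure D3:**
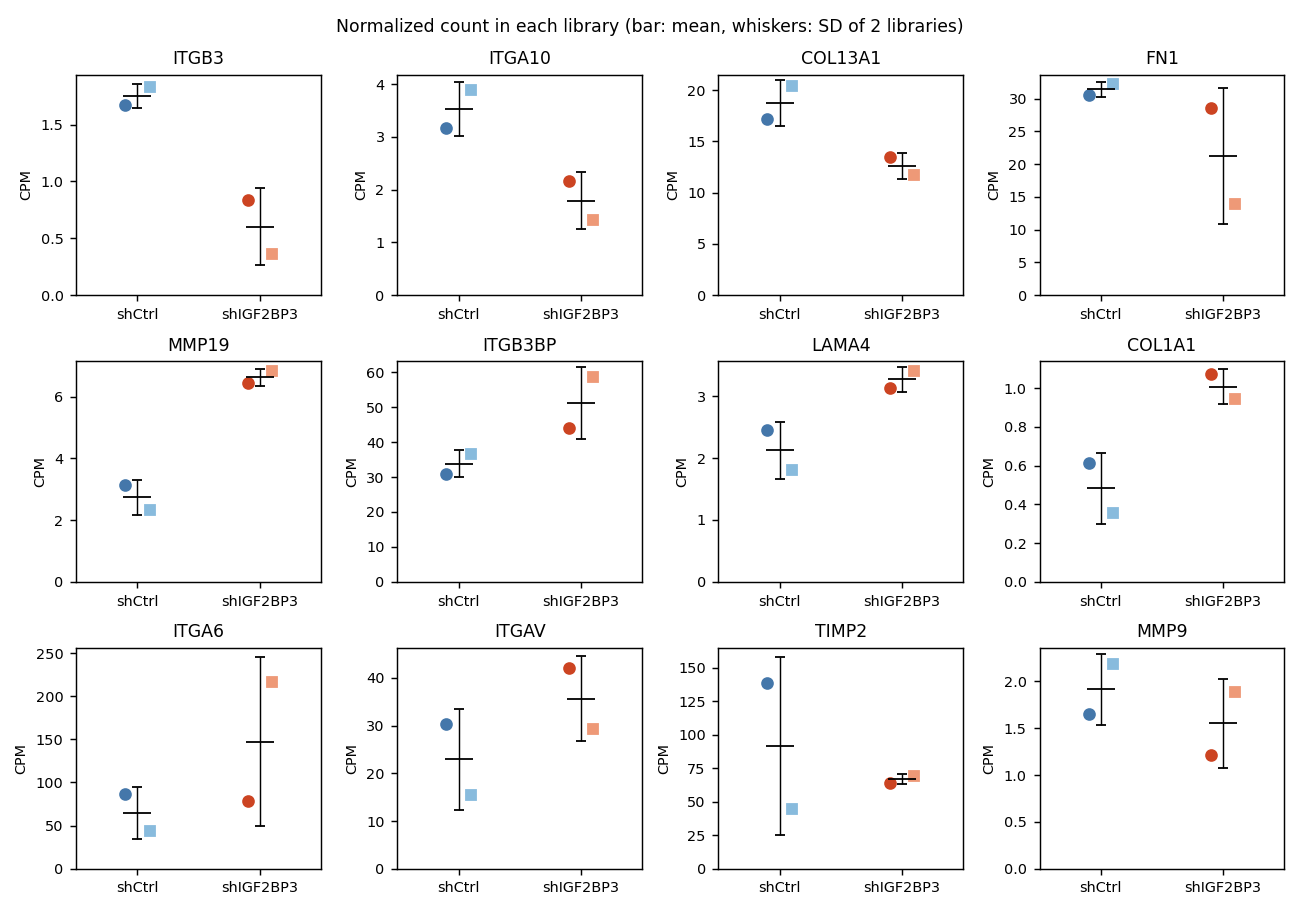
CPM of 12 members in each library, with axes from 0 (blue, shCtrl; red, shIGF2BP3; circle, replicate 1; square, replicate 2), the mean as a bar and the SD of 2 libraries as whiskers. The groups were apart for ITGB3, ITGA10, COL13A1, FN1, MMP19, ITGB3BP, LAMA4 and COL1A1 and overlapped for ITGA6, ITGAV, TIMP2 and MMP9.

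Of the laminin chains, 10 of 12 were tested and 0 passed the thresholds, with 5 on each side of 0 and a median log2 fold change of -0.065. LAMB3, a beta chain known from epithelial basement membranes, was at 151.8 and 179.5 CPM in shCtrl and at 149.1 and 150.6 CPM in shIGF2BP3. Both knockdown libraries lay just under the lower control, at a log2 fold change of -0.14 (SE 0.14, edgeR adjusted p = 0.708). LAMB1, a beta chain of widely made laminins, was at 111.4 and 114.0 CPM in shCtrl and at 114.0 and 113.3 CPM in shIGF2BP3. These overlapped within a few percent, with a log2 fold change of 0.01 (SE 0.12) whose sign turned with library totals (-0.07). LAMC1, the gamma chain that most laminins share, was at 137.6 and 135.6 CPM in shCtrl and at 158.5 and 150.9 CPM in shIGF2BP3. The knockdown libraries lay above both controls, but by a log2 fold change of only 0.18 (SE 0.13, edgeR adjusted p = 0.596).

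LAMA4 (chr6:112108760-112254939, minus strand), an alpha chain known from the basement membranes of vessels and muscle, was at 2.45 and 1.80 CPM in shCtrl and at 3.13 and 3.41 CPM in shIGF2BP3. The groups were apart, at a log2 fold change of 0.62 (SE 0.27, edgeR adjusted p = 0.482), and it passed only without shCtrl replicate 1, at 0.86. In FPKM the order was lost: LAMA4 was at 0.916 and 0.360 FPKM in shCtrl and at 0.493 and 0.748 FPKM in shIGF2BP3.

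Of the collagens, 16 of 42 chains were tested and 0 passed the thresholds. The median log2 fold change was -0.18, with 9 chains below 0 and 7 above. COL13A1 (ENSG00000197467, chr10:69801931-69959148, plus strand), a transmembrane collagen found at sites of cell adhesion, was at 17.2 and 20.4 CPM in shCtrl and at 13.5 and 11.7 CPM in shIGF2BP3. Both knockdown libraries were below both controls, and the log2 fold change was -0.58 (SE 0.19, edgeR adjusted p = 0.471). Its fold change of 1.49 fell just short of the threshold, and the gene passed without shCtrl replicate 1 (-0.69) and without shIGF2BP3 replicate 1 (-0.68).

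COL18A1, a basement membrane collagen from which endostatin is cut, was at 100 and 99.2 CPM in shCtrl and at 83.4 and 75.4 CPM in shIGF2BP3. The controls were close together and both knockdown libraries were below them, at a log2 fold change of -0.33 (SE 0.13, edgeR adjusted p = 0.475). COL6A2, a chain of the beaded filaments of type VI collagen, was at 44.6 and 54.2 CPM in shCtrl and at 42.1 and 44.2 CPM in shIGF2BP3, a log2 fold change of -0.20 (SE 0.16, edgeR adjusted p = 0.641). Its groups were apart by less than the gap between the 2 controls.

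COL1A1, a chain of the type I collagen of connective tissue, was rare, with 0.612 and 0.354 CPM in shCtrl and 1.07 and 0.944 CPM in shIGF2BP3. Both knockdown libraries were above both controls, and its log2 fold change of 1.05 (SE 0.43, edgeR adjusted p = 0.478) passed without shCtrl replicate 1, at 1.51, and, at 1.05, where only genes with a count of 10 in all 4 libraries were tested. Its usual partner chain, COL1A2, was too low to test. By class, the 4 tested fibril-forming chains had a median log2 fold change of -0.26, the 4 fibril-associated chains 0.41, the 2 beaded-filament chains -0.18 and the 2 transmembrane chains -0.40. All 4 fibril-associated chains (COL9A3, COL12A1, COL16A1 and COL21A1) lay above 0, 0 of them past the thresholds, and COL9A3 and COL21A1 had a count of 0 in shCtrl replicate 2. In FPKM this was not seen for COL12A1, the most abundant of them, at 1.66 and 1.34 in shCtrl and at 1.49 and 1.09 in shIGF2BP3. All 10 chains of the class, the untested ones included, summed to 2.04 and 1.53 FPKM in shCtrl and to 1.85 and 1.33 FPKM in shIGF2BP3, which overlap. Summed over all 42 collagens, the untested ones included, FPKM was 51.7 and 54.5 in shCtrl and 45.5 and 40.1 in shIGF2BP3. Both knockdown sums were below both control sums. FPKM were not scaled with TMM factors, and in limma on log2(FPKM + 1) 60.5% of all genes fitted lay below 0, with a median of -0.07.

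The 3 glycoproteins all had a log2 fold change below 0, and 0 passed the thresholds. FN1 (ENSG00000115414, chr2:215360440-215436172, minus strand), the ligand of the ITGA5 and ITGAV receptors, was at 30.5 and 32.2 CPM in shCtrl and at 28.6 and 13.9 CPM in shIGF2BP3. One knockdown library was close to the controls and the other was far below. In FPKM the groups overlapped, at 6.35 and 3.34 in shCtrl and at 5.59 and 1.69 in shIGF2BP3. The log2 fold change was -0.56 (SE 0.34, edgeR adjusted p = 0.558), moving to -0.13 without shIGF2BP3 replicate 2 and to -1.16, past the thresholds, without shIGF2BP3 replicate 1. THBS1, a matricellular protein that binds CD47 and integrins, was at 240.3 and 173.7 CPM in shCtrl and at 239.5 and 165.6 CPM in shIGF2BP3. The same range was covered in both groups, at a log2 fold change of -0.03 (SE 0.25, edgeR adjusted p = 0.971). SPARC, a collagen-binding matricellular protein, was at 1.09 and 1.56 CPM in shCtrl and at 0.898 and 1.09 CPM in shIGF2BP3, a log2 fold change of -0.42 (SE 0.35, edgeR adjusted p = 0.661). Its higher knockdown library was level with its lower control.

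Among the proteases, 14 of 23 MMPs were tested and 1 passed. MMP19 (ENSG00000123342, chr12:55835433-55842966, minus strand), a secreted protease that cleaves basement membrane proteins, was at 3.14 and 2.33 CPM in shCtrl and at 6.43 and 6.83 CPM in shIGF2BP3. Both knockdown libraries were well above both controls. The log2 fold change was 1.28 (SE 0.25, edgeR adjusted p = 0.431), a fold change of 2.42. It stayed between 1.08 and 1.51, past the thresholds, whichever library was left out. In FPKM it was at 0.748 and 0.798 in shCtrl and at 1.45 and 1.46 in shIGF2BP3, and limma on log2(FPKM + 1), a scale that understates the change of low genes, gave a log2 difference of 0.47 that did not pass, whereas with a pseudocount of 0.1 it passed.

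MMP9, the gelatinase that the study stained for in tissue, was rare in culture, at 1.65 and 2.18 CPM in shCtrl and at 1.22 and 1.89 CPM in shIGF2BP3. The groups overlapped, with a log2 fold change of -0.31 (SE 0.34, edgeR adjusted p = 0.736) that became -0.012 without shIGF2BP3 replicate 1 and -0.652 without shIGF2BP3 replicate 2. MMP14, a membrane-anchored protease that activates MMP2, was at 58.1 and 60.9 CPM in shCtrl and at 55.2 and 45.6 CPM in shIGF2BP3. Both knockdown libraries were below both controls, at a log2 fold change of -0.24 (SE 0.15, edgeR adjusted p = 0.569). MMP17, also bound to the membrane, was at 4.20 and 2.89 CPM in shCtrl and at 3.82 and 3.96 CPM in shIGF2BP3, with the knockdown libraries inside the range of the controls and a log2 fold change of 0.13 (SE 0.27) that turned sign in FPKM (-0.04).

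MMP1, the interstitial collagenase, was at 4.63 and 3.63 CPM in shCtrl and at 3.30 and 3.56 CPM in shIGF2BP3, a log2 fold change of -0.27 (SE 0.24, edgeR adjusted p = 0.676), with both knockdown libraries just under the lower control. It lies in the MMP cluster of chromosome 11 (chr11:102520508-102955734), where 9 members sit side by side and 3, MMP1, MMP10 and MMP13, were expressed enough to test. MMP10 was at 0.851 and 1.12 CPM in shCtrl and at 1.36 and 0.762 CPM in shIGF2BP3, and MMP13 at 2.45 and 3.13 CPM against 3.59 and 3.12 CPM. The log2 fold changes of the 3 neighbours were -0.27, 0.12 and 0.27, and 0 of them passed. Over all 14 tested MMPs the median log2 fold change was -0.08, with 9 below 0, but it was 0.035 among those of at least 1 FPKM, 0.114 without shIGF2BP3 replicate 2 and -0.236 without shIGF2BP3 replicate 1. The 6 membrane-type MMPs had a median of -0.11.

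Of the inhibitors, TIMP1 and TIMP2 were tested and neither passed. TIMP1, a broad inhibitor of MMPs, was at 226.5 and 302.6 CPM in shCtrl and at 278.3 and 320.3 CPM in shIGF2BP3, which overlap, at a log2 fold change of 0.18 (SE 0.19, edgeR adjusted p = 0.72). TIMP2, which inhibits MMPs and also takes part in the activation of MMP2 by MMP14, was at 138.6 and 44.5 CPM in shCtrl and at 64.4 and 69.4 CPM in shIGF2BP3. The controls lay on either side of the knockdown libraries. Its log2 fold change of -0.45 (SE 0.50, edgeR adjusted p = 0.734) became 0.59 without shCtrl replicate 1 and -1.05 without shCtrl replicate 2, past the thresholds in opposite directions.

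The 4 genes whose symbols only begin alike included 1 that passed. ITGB3BP (ENSG00000142856, chr1:63440773-63523502, minus strand) encodes a centromere and nuclear protein that was named for binding the ITGB3 tail. It was at 31.0 and 36.5 CPM in shCtrl and at 43.9 and 58.5 CPM in shIGF2BP3, with both knockdown libraries above both controls. The log2 fold change was 0.60 (SE 0.20, edgeR adjusted p = 0.471), and it did not pass without shCtrl replicate 1 (0.49), without shIGF2BP3 replicate 2 (0.38), with library totals (0.52) or in FPKM (0.47). ITGB1BP1, which binds the ITGB1 tail, was at 97.9 and 118.0 CPM in shCtrl and at 101.9 and 118.7 CPM in shIGF2BP3, and the groups overlapped, with a log2 fold change of 0.03 (SE 0.16) that turned sign with library totals (-0.05). MMP24OS, a gene on the strand opposite MMP24, was at 54.8 and 73.0 CPM in shCtrl and at 53.2 and 54.2 CPM in shIGF2BP3, a log2 fold change of -0.25 (SE 0.18, edgeR adjusted p = 0.601), and both knockdown libraries lay just under the lower control.

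The gene totals above are sums over transcripts, and the transcript that took the largest share was not always the same one. Of 48 tested members with at least 2 transcripts counted, 33 had the same leading transcript in all 4 libraries and 15 did not. The leading transcript differed between the shCtrl libraries for 8 members and between the shIGF2BP3 libraries for 10, and for 0 members was it the same within each group but different between them. For FN1, ENST00000456923 had counts of 765 and 0 in shCtrl and 620 and 0 in shIGF2BP3, so that 1 library of each group had none. For ITGA6, ENST00000264107 had counts of 2388 and 344 in shCtrl and 806 and 4065 in shIGF2BP3. This 1 transcript held most of the ITGA6 count in the library where ITGA6 stood highest.

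Of the members past the thresholds, MMP19 and ITGB3BP had counts that moved between transcripts. MMP19 was counted on ENST00000548882 in 3 libraries, at 118 in shCtrl replicate 1 and 222 and 178 in shIGF2BP3, but on ENST00000552872 in shCtrl replicate 2, at 76. ITGB3BP had 87.6% of its count on ENST00000271002 in shCtrl replicate 2 and between 16.9% and 26.0% in the other libraries. ITGB3 had a single transcript counted, ENST00000559488. For TIMP2, ENST00000262768 had a count of 4221 in shCtrl replicate 1 and of 549, 460 and 224 in the others, which is where the high TIMP2 value of that library lay.

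A few transcripts differed in share between the groups. At a share of at least 10% of the gene's count in both libraries of 1 group and at most 1% in both of the other, 2 of 48 members (4.17%) had such a transcript, against 4.09% of 10807 genes, so the share was that of all genes. They were ITGB4, whose ENST00000579662 took 67.7% and 89.6% of its count in shCtrl and 0.381% and 0.0% in shIGF2BP3, and COL13A1, whose ENST00000357811 took 18.6% and 20.0% in shCtrl and 0.0% and 0.311% in shIGF2BP3. For ITGB4, the count in shIGF2BP3 lay mostly on ENST00000450894 in replicate 1 (91.4%) and on ENST00000200181 in replicate 2 (59.2%). No test was run on transcripts.

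**Figure D4:**
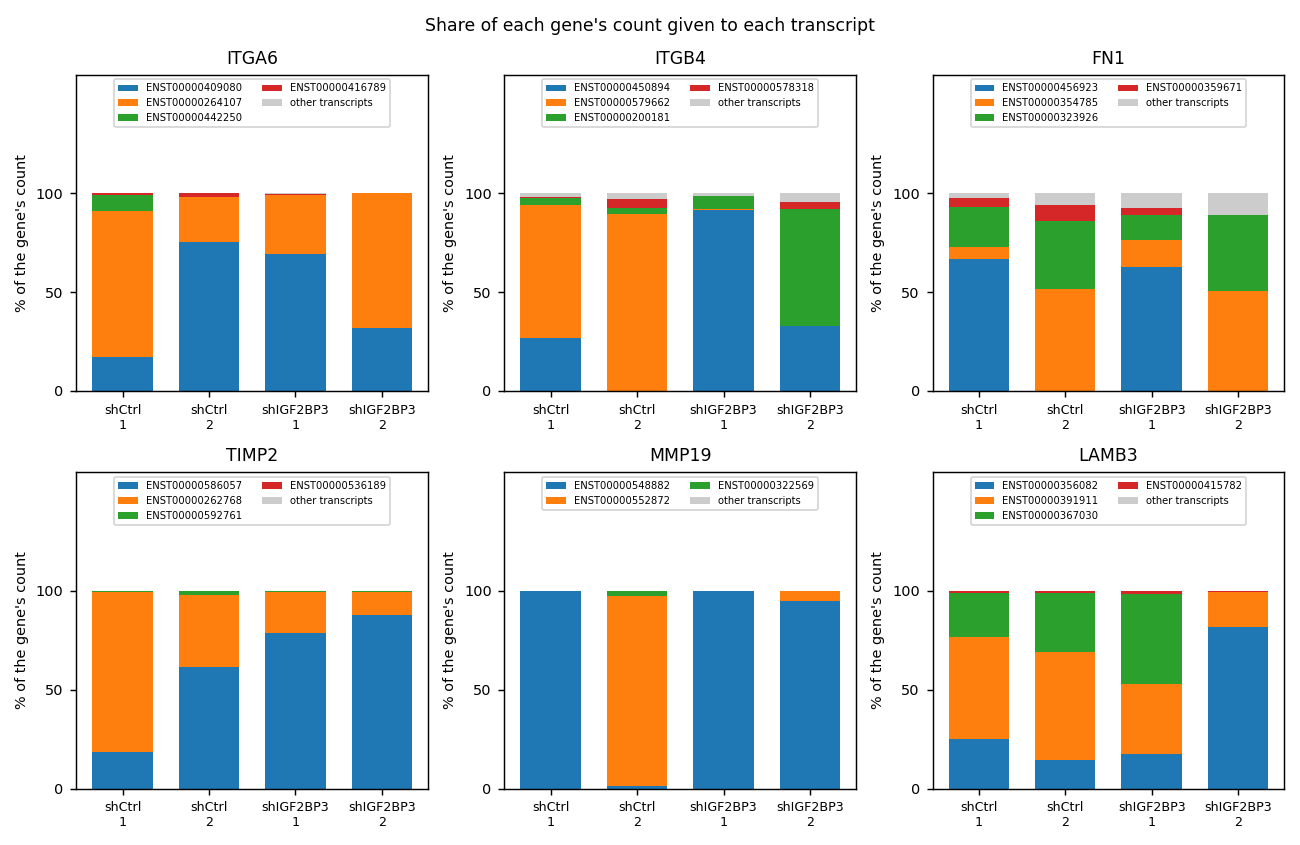
Share of a gene's count, in percent, given to each of its transcripts in each library, for 6 members, with the transcripts beyond the leading ones in grey. The leading transcript changed between libraries of the same group in ITGA6, ITGB4, FN1, TIMP2, MMP19 and LAMB3. ITGB4 had under 1% of its count on ENST00000579662 in both shIGF2BP3 libraries, which differed in their leading transcript.

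A few totals may hold reads of other genes, since whether counting used strand is not given in the sources used here. Of the tested members, 4 overlapped another gene on the same strand and 13 on the opposite strand. ITGA1 had counts of 106 to 180 beside 749 to 1200 for PELO, which lies inside it on the same strand, so the ITGA1 value is uncertain. The partners of TIMP2, ITGB3 and MMP24OS on the same strand had at most 17 counts. MMP23B has a near-identical pseudogene copy, and its value is likewise uncertain.

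The genes that act with these families were followed in 4 lists. Of 116 genes, 114 were matched to a gene identifier, all but PLAU and MIA2, which were not analysed. Of the matched genes, 99 were tested, and 3 of these passed the thresholds as higher and 3 as lower, where 2.54% and 2.81% of all genes did. In edgeR, 0 passed at an adjusted p under 0.05 (smallest adjusted p 0.471) and 15 at an unadjusted p of at most 0.05, where 10.6% of all genes did. The median log2 fold change was -0.06, with 60 below 0 and 39 above. In integrin adhesion (talins, kindlins, FAK, paxillin and the like), 34 of 39 genes were tested and 0 passed in either direction, with a median of -0.04.

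In collagen synthesis, 32 of 35 genes were tested and 1 passed, as lower. P4HB, the protein disulfide isomerase that is also the beta subunit of prolyl 4-hydroxylase, was at 556.0 and 594.7 CPM in shCtrl and at 234.2 and 341.7 CPM in shIGF2BP3. The groups were far apart, at a log2 fold change of -0.999 (SE 0.21, edgeR adjusted p = 0.471), between -1.30 and -0.74 without 1 library. In the list of basement membrane partners, 13 of 15 genes were tested, 10 lay below 0, and SDC1 passed as lower. SDC1, the syndecan that binds laminins and collagens through heparan sulfate, was at 11.4 and 9.53 CPM in shCtrl and at 7.04 and 5.55 CPM in shIGF2BP3, without overlap and at a log2 fold change of -0.73 (SE 0.22, edgeR adjusted p = 0.471). It did not pass without shCtrl replicate 1 (-0.59) or shIGF2BP3 replicate 2 (-0.57).

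In protease activation and control, 3 of 20 tested genes passed as higher and 1 as lower, against 2.54% and 2.81% of all genes. ADAM10, a membrane sheddase, was at 93.0 and 76.3 CPM in shCtrl and at 127.7 and 131.3 CPM in shIGF2BP3, a log2 fold change of 0.61 (SE 0.15, edgeR adjusted p = 0.471). It did not pass without shCtrl replicate 2 (0.48), with library totals (0.53) or in FPKM (0.43). TFPI2, a serine protease inhibitor of the matrix, was at 31.5 and 34.5 CPM in shCtrl and at 43.8 and 63.4 CPM in shIGF2BP3, a log2 fold change of 0.70 (SE 0.21, edgeR adjusted p = 0.471), and of the fits without 1 library it passed only in the one without shIGF2BP3 replicate 1. SERPINB2, an inhibitor of the plasminogen activator urokinase, was at 2.05 and 2.77 CPM in shCtrl and at 5.24 and 4.25 CPM in shIGF2BP3, a log2 fold change of 0.98 (SE 0.27, edgeR adjusted p = 0.471). It did not pass without shCtrl replicate 1 (0.78) or shIGF2BP3 replicate 1 (0.83). PCSK6, a proprotein convertase, was at 2.79 and 2.04 CPM in shCtrl and at 0.985 and 1.38 CPM in shIGF2BP3, a log2 fold change of -1.04 (SE 0.33, edgeR adjusted p = 0.471), and did not pass without the same libraries (-0.78 and -0.80) or in DESeq2 (-1.03). In each of these 4 genes the groups did not overlap, which held for 46.8% of all genes. SERPINB2 overlaps the gene SERPINB10 on the same strand, so its total may hold reads of that gene.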

How the data were processed

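RNA-seq libraries of H1299 cells (2 shCtrl, 2 shIGF2BP3) were made with an mRNA-seq library kit. The submitters' processing notes name CASAVA, FastQC, Trimmomatic, HISAT2 and bedtools and the build GRCh38, without versions or roles. The counter and its strand setting are not given in the sources used here. Transcript tables were deposited by the authors, holding whole-number estimated counts (not normalized) and FPKM (scaled by length and library size). Replicates 1 and 2 of shIGF2BP3 in the labels are headed 2 and 3 in the deposited tables. 0 columns of other samples were present.

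Counts and FPKM of 95139 transcripts were summed to 20263 genes. Of these, 18218 received a symbol by position against RefSeq GRCh38.p14 genes (shared part of at least 0.5, lead of 0.2), and the rule's COL5A2, COL10A1 and MMP24-AS1-EDEM2 received no gene identifier and were not analysed here. The members and lists were chosen with earlier results of these data known. The 13430 genes with a count of 10 or more in at least 2 libraries were fitted with edgeR 4.0.16 in R 4.3.3 (TMM, estimateDisp, glmQLFit and glmQLFTest, prior count 0.125), with Benjamini-Hochberg adjustment over all of them. CPM are counts scaled to the library total times its TMM factor (1.085 and 0.973 in shCtrl, 1.021 and 0.927 in shIGF2BP3). The common biological coefficient of variation was 22.8%. Replicates differed beyond sampling noise (chi-square per degree of freedom of 84.2 in shCtrl and 84.0 in shIGF2BP3). The fit was tested on simulated data.

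Members were named with values in every library if they were FN1, THBS1, SPARC or MMP9, among the 3 most abundant tested members of a family by FPKM, at an unadjusted p of at most 0.05, or changed by at least 1.5 times without overlap between the groups. From the lists, members past the thresholds were named. ITGAV, ITGAM, ITGAE, MMP10, MMP13, COL4A1, MMP23B, ITGA1, the untested members and the transcripts were picked once their values had been seen.

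Results were recomputed with DESeq2 1.42.0, with RLE factors, with library totals with and without mitochondrial genes, 3 other filters on low counts, transcript counts of 1 set to 0, limma 3.58.1 on log2 of FPKM plus a pseudocount of 1 or 0.1 (keeping genes that reached 1 FPKM in 2 libraries), limma with a pseudocount of 1 and no filter, the replicate number as a block, a fold change of at least 2 and each library left out in turn. Counting only members with a mean FPKM of at least 1 was added after seeing the data. One member that entered the fit and the family counts is not reported here by name.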

Additional observations from a re-analysis of the deposited data

How the results depend on the processing

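No member passed an adjusted p under 0.05 in edgeR with TMM, RLE factors or library totals, in limma or with a library left out, and DESeq2 called 1, MMP19. In all, DESeq2 called 159 of 13430 genes at that adjusted p. At the thresholds of the study, 2 members were higher and 2 lower. The count of higher members was 1 with a fold change of at least 2, with library totals (all genes or nuclear genes) and in limma with a pseudocount of 0.1 on FPKM, and 0 in limma with a pseudocount of 1, filtered or not. It was 3 without a filter on counts, where COL4A1 passed, and with a count of 10 required in all 4 libraries, where COL1A1 did. The count of lower members was 1 with a fold change of at least 2 and 0 in the 3 limma fits and among members with a mean FPKM of at least 1, where ITGB3 and ITGA10 were not counted. With 1 library left out, 1 to 6 members were higher and 1 to 4 lower, and in the pathway lists 1 to 6 were higher and 1 to 8 lower. Limma with a pseudocount of 1, filtered or not, gave 1 lower list gene in place of 3. Beyond fewer genes tested, the cause of these changes was not tested.

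The median log2 fold change of the integrin beta chains was -0.003 among members of at least 1 FPKM, -0.516 without a filter on counts, and -0.128, -0.133 and -0.092 in limma with pseudocounts of 1 and 0.1 and with no filter. That of the MMPs was 0.035 among members of at least 1 FPKM. With 1 library left out, medians ran from -0.236 to 0.114 for MMPs, -0.324 to 0.291 for TIMPs, -0.205 to -0.048 for collagens, -0.595 to -0.134 for glycoproteins, -0.152 to 0.065 for integrin alpha chains, -0.39 to -0.093 for integrin beta chains, -0.127 to -0.004 for laminins and -0.265 to 0.072 for the genes whose symbols begin alike.

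With library totals, 50 of 67 members lay below 0 in place of 42, and with nuclear totals 47. Among the members named with values in every library, the sign turned under these scalings or in FPKM for 4, all near 0. ITGB1 was -0.068 with library totals, -0.017 with nuclear totals and -0.057, -0.058 and -0.057 in the 3 limma fits, LAMB1 was -0.066, -0.017, -0.064, -0.068 and -0.064 in the same order, MMP17 was -0.044, -0.065 and -0.044 in the limma fits, and ITGB1BP1 was -0.047 with library totals. With 1 library left out, ITGB1 ran from -0.07 to 0.112, ITGB1BP1 from -0.093 to 0.171, ITGB5 from -0.045 to 0.044, MMP17 from -0.111 to 0.432, THBS1 from -0.315 to 0.225, TIMP1 from -0.011 to 0.402 and TIMP2 from -1.051 to 0.593. Without turning sign, SPARC ran from -0.651 to -0.137, MMP1 from -0.432 to -0.077, ITGA3 from -0.367 to -0.075, ITGB4 from -0.341 to -0.116, LAMB3 from -0.256 to -0.018, COL6A2 from -0.325 to -0.049, MMP14 from -0.374 to -0.108 and MMP24OS from -0.437 to -0.027. The lower end came without shCtrl replicate 1 and the upper without shCtrl replicate 2, the other way round for MMP1, and for MMP14 without shIGF2BP3 replicates 1 and 2.

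The replicate numbers of the labels are shared by the groups. Across 13430 genes, the departures from the group mean correlated at 0.0437 between libraries of 1 number. Whether libraries of 1 number were handled together is not stated, and this correlation cannot decide it. With the number as a block, 5 members passed, 3 higher and 2 lower, ITGAV being added. The depth leaves members of under 10 counts untested.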
